A study of Mus musculus with 11 samples.

Results

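The interferon-induced genes described here are the guanylate-binding proteins (GBPs), the immunity-related GTPases (IRGs), the IFIT, OAS and IFITM families and related effectors, taken by gene symbol from a table of mouse glioma expression. The symbol rule took 61 of 24320 named genes. By role they were grouped as 18 gamma-type genes (11 GBPs and 7 IRGs), 31 type I-type genes (6 IFITs, 12 OAS genes and 13 other effectors) and 12 genes described apart from both (7 IFITMs, 4 PYHIN genes and Ifi30). The grouping follows the classical inducer and was not derived from these data. The values used are FPKM, in which fragments are divided by the transcript's length and the library's size, so levels of different genes are per length and can be set beside each other.

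RNA came from brains of mice with Sleeping Beauty tumors, in which a transposase inserts plasmid DNA into the genome of host cells. Newborn mice received plasmids in the right lateral ventricle that carried the SB transposase, firefly luciferase, SV40LgT (a viral protein that inactivates p53 and Rb) and either NRASG12V, a constitutively active form of NRAS, or PDGFB, a growth factor. All tumors thus shared luciferase and SV40LgT, and the table holds 4 NRAS tumors, 4 PDGFB tumors and 3 normal brains labelled as wild-type controls. Tumor regions were cut out under GFP illumination at a middle stage of growth, so each tumor library is a mixture of tumor and host cells. The labels disagree on strain (FVB in the series text, B6 on every sample except normal brain 3, which is marked FVB), and they do not say that replicates were separate animals. P-values therefore measure the spread between these samples, which may be technical. Titles mark normal brain 1 as matched to NRAS tumor 2 and normal brain 3 as matched to PDGFB tumor 1.

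Interferons are signalling proteins of antiviral and antitumor defence. Interferon gamma, made mainly by T and NK cells, acts through its receptor and JAK kinases on factors that bind gamma-activated sites (GAS). Type I interferons, made by many cell types, act through a complex that holds STAT2 and IRF9 and binds the interferon-stimulated response element (ISRE). GBPs and IRGs are large GTPases that attack vacuoles of intracellular pathogens and are classical targets of interferon gamma. IFITs bind foreign RNA, OAS enzymes make a messenger that activates RNase L, and ISG15, the MX proteins and viperin (Rsad2) are further antiviral effectors of the type I response. Most of these genes respond to both kinds of interferon to some degree.

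Promoter letters are shown for the members that carry the comparisons below, because 4 IRG promoters share an arrangement found in no other member window. RefSeq windows of the GRCm38.p6 build, from 250 bases before to 50 bases after a start site, were at hand for 43 of the 61 members (52 windows, since some genes have several starts). The 120 bases just before the start are printed 5′ to 3′ in the direction of the gene. Capitals mark matches to the ISRE core, written here as GAAA, any 2 bases and GAAA again and searched on both strands, and to TTCNNNGAA, the GAS, which reads alike on both strands.
Igtp (chr11:58199436-58199555, plus strand): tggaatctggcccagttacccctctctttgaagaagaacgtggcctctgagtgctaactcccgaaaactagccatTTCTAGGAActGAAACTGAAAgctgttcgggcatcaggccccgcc
Irgm2 (chr11:58214857-58214976, plus strand): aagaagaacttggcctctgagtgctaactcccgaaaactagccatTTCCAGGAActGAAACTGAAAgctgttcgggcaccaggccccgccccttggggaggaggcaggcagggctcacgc
Tgtp1 (chr11:48992247-48992366, minus strand): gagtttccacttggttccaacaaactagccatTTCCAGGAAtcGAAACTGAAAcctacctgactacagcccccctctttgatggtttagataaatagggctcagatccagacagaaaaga
Tgtp2 (chr11:49064213-49064332, minus strand): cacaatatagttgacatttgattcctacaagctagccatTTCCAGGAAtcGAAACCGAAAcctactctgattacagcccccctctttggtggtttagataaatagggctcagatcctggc
Irgm1 (chr11:48871421-48871540, minus strand): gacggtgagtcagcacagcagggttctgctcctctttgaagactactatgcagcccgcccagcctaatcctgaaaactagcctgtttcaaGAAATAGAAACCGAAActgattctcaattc
Gbp2 (chr3:142620543-142620662, plus strand): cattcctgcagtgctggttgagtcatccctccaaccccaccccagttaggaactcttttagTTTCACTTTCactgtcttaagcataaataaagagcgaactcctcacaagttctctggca
Gbp3 (chr3:142559924-142560043, plus strand): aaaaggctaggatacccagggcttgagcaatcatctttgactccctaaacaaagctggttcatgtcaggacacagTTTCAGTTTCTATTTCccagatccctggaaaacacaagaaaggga
Ifit1 (chr19:34640769-34640888, plus strand): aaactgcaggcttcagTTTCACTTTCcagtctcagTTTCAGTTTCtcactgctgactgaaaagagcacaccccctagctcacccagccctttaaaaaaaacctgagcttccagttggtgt
Isg15 (chr4:156200819-156200938, minus strand): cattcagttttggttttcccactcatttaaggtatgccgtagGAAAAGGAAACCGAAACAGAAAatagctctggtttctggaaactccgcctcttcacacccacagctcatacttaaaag

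In Igtp, Irgm2, Tgtp1 and Tgtp2 a GAS was followed by an ISRE core with 2 bases between them. That arrangement stood in 4 of the 52 member windows and, on either strand, in 5 of all 32851 promoter windows (0.0152%); the 1 other window was that of Gm12185. Irgm1 held 2 overlapping ISRE cores and no GAS, and Gbp2 held 1 ISRE core. Isg15 held 3 overlapping ISRE cores and Ifit1 held 2 separate ones. Over all windows, the ISRE core was found in 3.44% and the GAS in 8.30%. Gamma-type windows covered 11 of the 18 genes, with none for Iigp1 or the GBPs on chromosome 5. Among these 12 windows, 10 held the ISRE core, 6 the GAS and 6 both, and 4 of the last were IRG windows. Type I-type windows covered 21 of the 31 genes. Of these 26 windows 13 held the ISRE core, 4 the GAS and 1 both. Neither of the 2 Ifit2 windows nor the window of Oasl2 held the ISRE core in these letters. These matches are a description of letters and do not show binding, and paralogs with copied promoters are not independent cases.

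All 61 members were placed on GRCm38. The GBPs lie in 2 clusters, on chromosome 3 (Gbp2, Gbp2b, Gbp3, Gbp5, Gbp7) and chromosome 5 (Gbp4, Gbp6, Gbp8, Gbp9, Gbp10, Gbp11). The IRGs lie on chromosome 11 except Iigp1, which is on chromosome 18, the OAS genes on chromosome 5 and the IFITs on chromosome 19. Some members cannot be told apart cleanly by short reads. The longest transcripts of Tgtp1 and Tgtp2 were 99.8% identical over the aligned bases, those of Gbp6 and Gbp10 98.5%, those of Ifit3 and Ifit3b 98.0%, and those of Oas1a and Oas1g 97.5%. The annotated spans of Igtp and Irgm2 overlap on the same strand, as do those of Gbp4, Gbp8 and Gbp9. No source used here says how shared reads were assigned, so values within these sets are uncertain.

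A gene was tested if it reached 1 FPKM in at least 3 libraries, and 52 of the 61 members did, including all 18 gamma-type genes. The 9 others stayed low: Ifi205 peaked at 2.31 FPKM in NRAS tumor 3, Ifi27l2b, Ifi44l, Ifit1bl2, Ifitm5, Oas1e, Oas1f and Oas1h stayed below 1 FPKM everywhere, and Oas1d was listed at 0 in every library. Among the 52, 26 were below 1 FPKM in all 3 normal brains and so entered through the tumors. The filter had selected those for a high tumor level, and counts over the 52 are descriptions. Tests were made with limma on log2(FPKM + 1), with p-values adjusted over all 14491 genes tested. Fold changes are differences on that scale, which understates the change of genes near 0.

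Nearly all members exceeded their normal brain level in NRAS tumors. Of 52 tested, 50 rose (background: 32.0% of all genes tested rose), 1 fell (30.3% of all genes tested) and 1 was not called. The median fold change of the members was 3.10 (log2), beside 0.01 over all genes tested. In 49 members every NRAS tumor was above every normal brain, a separation that 33.2% of all genes tested showed. Of the 18 members at or above 1 FPKM in all 3 normal brains, which the filter had kept whatever the tumors showed, 16 rose (27.2% of all such genes rose). All 18 gamma-type genes rose, with a median fold change of 4.45, as did 23 of 24 type I-type genes, with a median of 2.26. The gene that fell was Ifit1bl1, an IFIT1-like gene on chromosome 19, with 1.83, 1.49 and 1.37 FPKM in normal brain against 0.391 to 1.11 FPKM in NRAS tumors (-0.51 ± 0.18 SE, limma adjusted p = 0.0272). Within the libraries whose titles are numbered 1834 to 1838 (the 3 normal brains and NRAS tumors 1 and 2), 37 members rose (23.6% of all genes tested) and none fell (21.2% of all genes tested), and the 14 calls lost included Ifit1bl1, Ifit3, Tgtp1, Tgtp2 and 5 OAS genes.

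PDGFB tumors differed from normal brain in few members. Here 9 of 52 rose (29.3% of all genes tested rose) and 2 fell (29.2% of all genes tested). Of the 18 members at or above 1 FPKM in all normal brains, 8 rose (28.6% of all such genes rose). The 9 were Gbp3, Irgm1, Ifi202b, Ifi27, Ifi27l2a, Ifi30, Ifit2, Ifitm2 and Ifitm3, and the 2 were Ifit1bl1 and Ifitm10. Every PDGFB tumor was nonetheless above every normal brain in 28 members (33.8% of all genes tested). The median fold change was 0.63 over the members and 0.04 over all genes tested. The count depended on the setting: 18 members rose when only PDGFB tumors and normal brains entered the fit (31.9% of all genes tested). With a pseudocount of 0.1, 16 rose (30.2%), and without NRAS tumor 2, 15 rose (31.0%). These shares of the 52 are near those of the table. All normal brains carry title numbers 1834 to 1838 and all PDGFB tumors 2038 to 2046, so this comparison has no value within 1 run of numbers. With the run as a covariate, which the NRAS tumors alone inform, 2 members rose (Ifi27 and Ifitm3, with 17.0% of all genes tested rising) and 7 fell (15.9% of all genes tested). The 7 were Gbp2b, Gbp5, Gbp8, Gbp11, Ifi203, Ifit1bl1 and Tgtp1.

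The models differed from each other in most members. NRAS tumors were higher than PDGFB tumors in 45 of 52 (14.3% of all genes tested were higher), and lower in 0 (12.2% of all genes tested), by limma and also at an unadjusted p below 0.05. Of the 18 members at or above 1 FPKM in all normal brains, 14 were higher in NRAS tumors (10.6% of all such genes). The median difference was 2.37 for the members tested and -0.04 for all genes tested. All 18 gamma-type genes were higher in NRAS tumors (median 3.65) and 19 of 24 type I-type genes (median 1.86). Complete separation of the tumors was rarer: 19 of 52 members had every NRAS tumor above every PDGFB tumor (12.9% of all genes tested), among them 6 of 18 gamma-type genes. Of the 12 other gamma-type genes, PDGFB tumor 2 overlapped the NRAS range, as the per-library values below show. The 7 members not called between the models were Ifi27, Ifit2, Ifit1bl1, Ifitm7, Ifitm10, Mx2 and Oas1c. Within title numbers 2038 to 2046 (NRAS tumors 3 and 4 against the 4 PDGFB tumors), the same 45 were called, and Mx2 and Oas1c besides. In that fit 13.2% of all genes tested were higher in NRAS tumors. All comparisons share libraries, and their values are set side by side without a measure of their likeness.

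**Figure D1:**
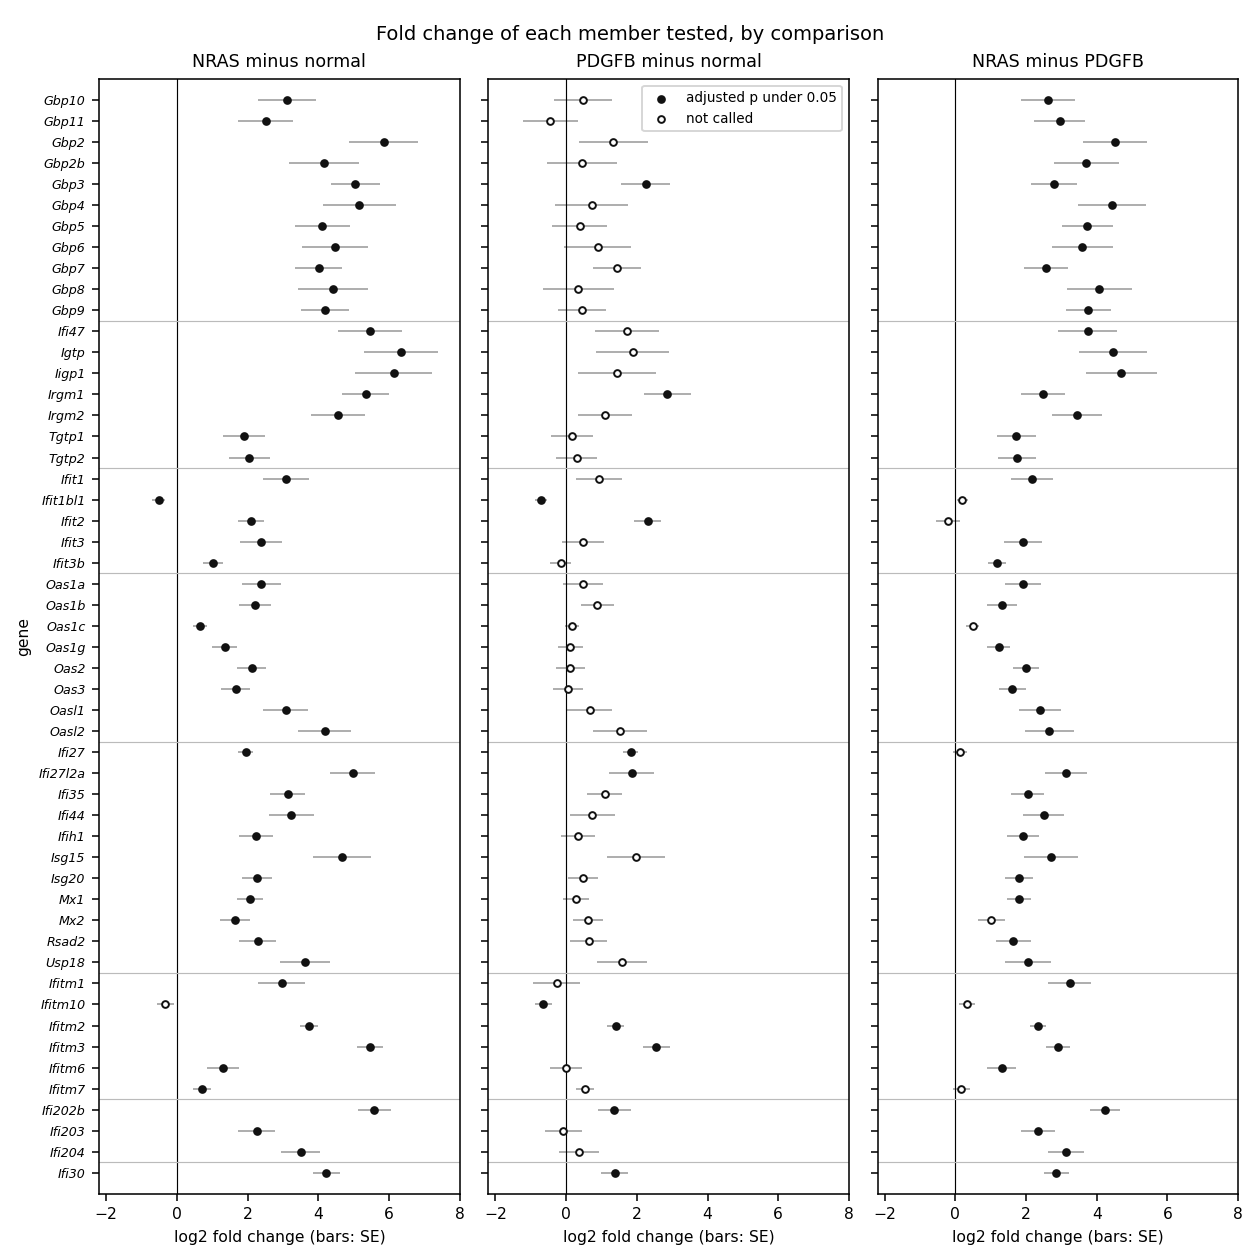
Log2 fold change of each of the 52 members tested (rows, grouped by family), with its standard error as a bar, in 3 comparisons (panels). Filled points passed the adjusted p threshold of 0.05: 51 against normal brain in NRAS tumors, 11 in PDGFB tumors, and 45 between the models.

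The GBPs were low in normal brain and spanned a wide range in tumors. Gbp2, the most abundant GBP by mean level and an interferon gamma-induced GTPase that coats pathogen vacuoles, was at 2.11, 2.24 and 2.22 FPKM in the normal brains. The NRAS tumors, 1 to 4, held 97.6, 53.4, 873 and 245 FPKM. It was at 3.61, 45.8, 2.93 and 3.96 FPKM in PDGFB tumors 1 to 4. The groups did not overlap: NRAS tumors were highest, and among PDGFB tumors only tumor 2 came near the lowest of them. Gbp2 rose in NRAS tumors (5.85 ± 0.97 SE, limma adjusted p = 0.000565) and was not called in PDGFB tumors against normal brain (1.34 ± 0.97, adjusted p = 0.262). It differed between models (4.52 ± 0.90, adjusted p = 0.00491).

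Gbp3 was the GBP with the largest change in PDGFB tumors. Its levels were 1.52, 1.47 and 1.68 FPKM in normal brain, 59.7, 27.9, 257 and 111 FPKM in NRAS tumors and 8.57, 37.1, 6.53 and 6.94 FPKM in PDGFB tumors. Every tumor was above every normal brain, and PDGFB tumor 2 lay above NRAS tumor 2. Gbp3 rose in both models (5.05 ± 0.70, limma adjusted p = 0.000211, and 2.25 ± 0.70, adjusted p = 0.0167), and its rise in PDGFB tumors was kept without tumor 2 (1.70, adjusted p = 0.0369). It was higher in NRAS than in PDGFB tumors by 2.80 ± 0.65 (adjusted p = 0.00971).

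The GBP clusters differed in PDGFB tumors 1, 3 and 4. Summed over the 5 genes on chromosome 3, GBP levels were 6.22 to 7.02 FPKM in normal brain and 14.5 to 18.3 FPKM in these tumors. Summed over the 6 genes on chromosome 5, they were 2.91 to 4.15 FPKM in normal brain and 2.15 to 3.37 FPKM in these tumors. The chromosome 3 difference came from Gbp2, Gbp3 and Gbp7, whose levels in all 3 tumors exceeded every normal brain. Gbp5 and Gbp2b, in the same cluster, stayed within or close to the normal range. In PDGFB tumor 2 the sums were 112 and 34.8 FPKM, and in NRAS tumors they ran from 108 to 1536 and from 35.8 to 856 FPKM. The contrast of the clusters was noticed in these values and has no test.

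IRGs showed the largest changes of any member. Igtp (IRGM3), a regulator that guards host membranes, was at 1.79, 0.947 and 1.03 FPKM in normal brain, 119, 54.0, 742 and 212 FPKM in NRAS tumors and 3.70, 67.0, 2.40 and 3.15 FPKM in PDGFB tumors. Every tumor was above every normal brain, and PDGFB tumor 2 stood above NRAS tumor 2. Igtp rose in NRAS tumors by 6.34 ± 1.04 (limma adjusted p = 0.000516), the largest fold change of the 52 members, and it was higher there than in PDGFB tumors by 4.46 ± 0.96 (adjusted p = 0.00704). Its difference between PDGFB tumors and normal brain was 1.88 ± 1.04 (adjusted p = 0.142).

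Iigp1 (Irga6), an effector IRG loaded onto vacuoles, was at 0.650, 0.587 and 0.637 FPKM in normal brain. It was at 70.3, 20.4, 600.0 and 185 FPKM in NRAS tumors and at 1.84, 27.3, 0.813 and 1.57 FPKM in PDGFB tumors. PDGFB tumor 2 again exceeded NRAS tumor 2, while PDGFB tumor 3 was just above normal brain. The difference between the models, 4.70 ± 1.01 (limma adjusted p = 0.00697), was the largest among members.

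Irgm1, another regulatory IRG, was the member with the largest change in PDGFB tumors against normal brain. It was at 4.23, 3.14 and 3.47 FPKM in normal brain, 169, 67.6, 561 and 184 FPKM in NRAS tumors and 21.8, 103, 23.3 and 20.9 FPKM in PDGFB tumors. The 3 lower PDGFB tumors lay close together and well above normal brain, and PDGFB tumor 2 lay inside the NRAS range. Irgm1 rose in both models (5.35 ± 0.67, limma adjusted p = 0.00012, and 2.87 ± 0.67, adjusted p = 0.00356). Without PDGFB tumor 2 its rise in that model was 2.32 (adjusted p = 0.00619). With the run of title numbers as a covariate neither Gbp3 (0.23, adjusted p = 0.862) nor Irgm1 (1.29, adjusted p = 0.314) kept its call in PDGFB tumors.

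Of the remaining IRGs, Ifi47 and Irgm2 followed Igtp at lower levels, with peaks of 316 and 120.4 FPKM in NRAS tumor 3. Tgtp1 and Tgtp2 peaked at 12.4 and 9.76 FPKM, and Tgtp2 was listed at 0 in all 3 normal brains, so no fold is given for it. All 7 IRGs overlapped between the models, in each case through PDGFB tumor 2.

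**Figure D2:**
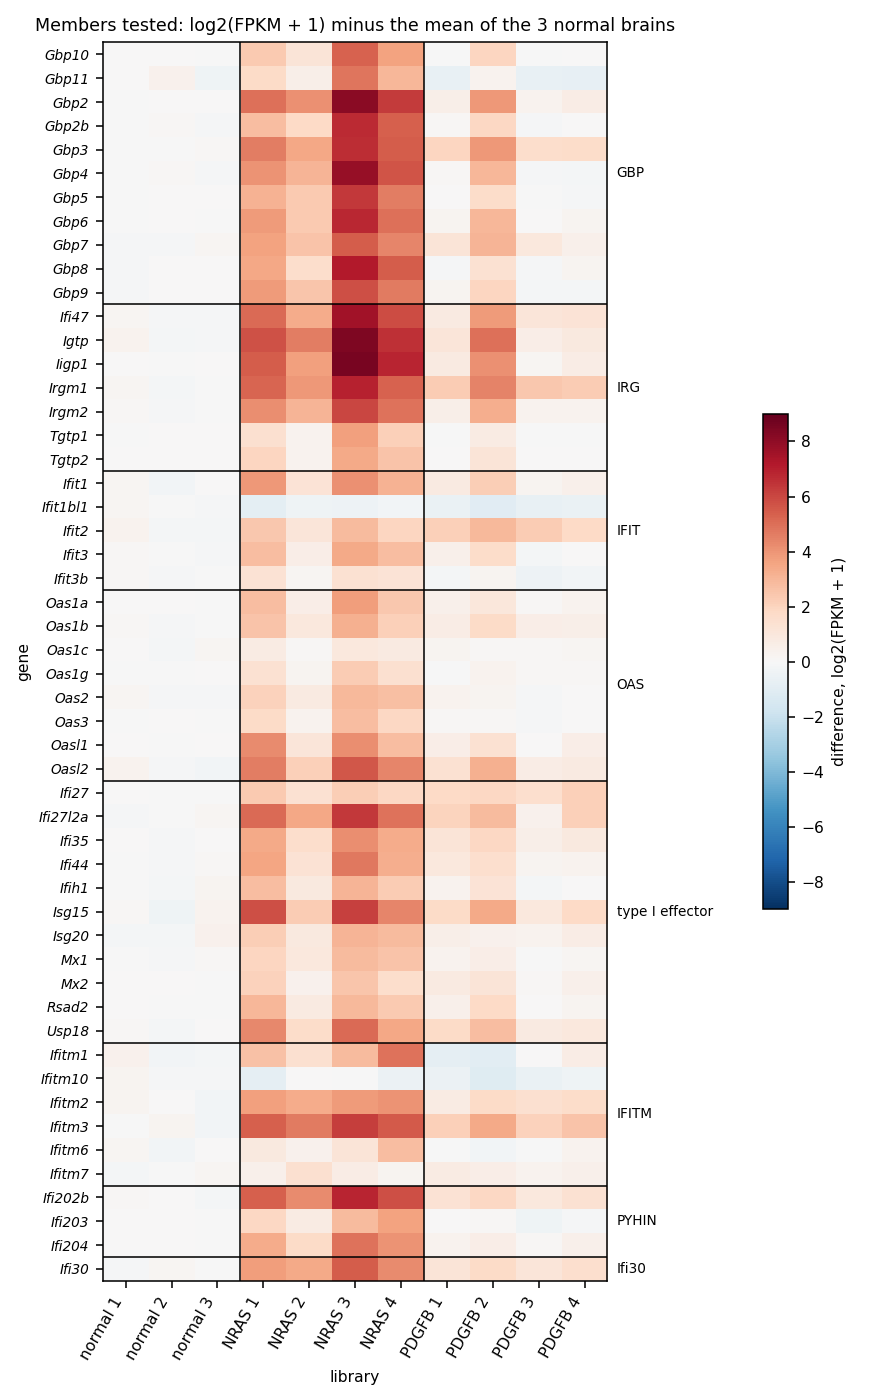
Level of each of the 52 members tested (rows, grouped by family) in each of the 11 libraries (columns), as log2(FPKM + 1) minus the mean of the 3 normal brains. NRAS tumor 3 is darkest in 41 of 52 rows, and PDGFB tumor 2 stands out from the other PDGFB tumors in all 18 GBP and IRG rows.

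The median fold change of type I-type genes in NRAS tumors, 2.26, was below the gamma-type median of 4.45, but the types overlapped and their difference was not tested. Isg15, a ubiquitin-like protein attached to other proteins, was at 3.09, 1.93 and 3.66 FPKM in normal brain, 215, 17.8, 270.2 and 79.6 FPKM in NRAS tumors and 11.9, 38.7, 6.38 and 12.2 FPKM in PDGFB tumors. NRAS tumor 2 was far below the other NRAS tumors, and PDGFB tumor 2 was above it. Isg15 rose in NRAS tumors (4.67 ± 0.82, limma adjusted p = 0.000757) and was higher there than in PDGFB tumors (2.70 ± 0.76, adjusted p = 0.0233). Its difference between PDGFB tumors and normal brain (1.97 ± 0.82, adjusted p = 0.0585) missed the threshold. That value passed with only the groups compared in the fit (adjusted p = 0.00968), with a pseudocount of 0.1 (0.038), and without NRAS tumor 2 (0.00965), NRAS tumor 3 (0.044) or PDGFB tumor 3 (0.0449). The difference of Isg15 between the models missed the threshold with the 2 models alone (adjusted p = 0.0526) and without NRAS tumor 1 (0.0531), NRAS tumor 3 (0.0652), PDGFB tumor 1 (0.0539) or PDGFB tumor 3 (0.0697).

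The IFITs were modest in level. Ifit1, which binds RNA that lacks a host cap, was at 1.11, 0.625 and 0.983 FPKM in normal brain, 27.7, 3.45, 31.1 and 15.4 FPKM in NRAS tumors and 2.37, 7.75, 1.21 and 1.58 FPKM in PDGFB tumors. NRAS tumors 1 and 3 were highest, and NRAS tumor 2 lay below PDGFB tumor 2. Ifit1 rose in NRAS tumors (3.09 ± 0.64, limma adjusted p = 0.00192) and was higher there than in PDGFB tumors (2.16 ± 0.60, adjusted p = 0.0214). That last call was lost with the 2 models alone (adjusted p = 0.0501) and without NRAS tumor 3 (adjusted p = 0.0616), NRAS tumor 4 (adjusted p = 0.0506), PDGFB tumor 3 (adjusted p = 0.0643) or PDGFB tumor 4 (adjusted p = 0.0504). Ifit3 rose in NRAS tumors by 2.39 and its near-identical copy Ifit3b by 1.02.

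Ifit2 departed from the other IFITs. Its levels were 4.49, 2.95 and 2.98 FPKM in normal brain, 23.2, 8.60, 31.6 and 15.9 FPKM in NRAS tumors and 19.0, 33.2, 20.4 and 14.6 FPKM in PDGFB tumors. All tumors lay above all normal brains and the models overlapped. Ifit2 rose in both, by 2.10 ± 0.38 (limma adjusted p = 0.000882) and 2.31 ± 0.38 (adjusted p = 0.000492), and the difference between the models was -0.21 ± 0.35 (adjusted p = 0.703). With the run of title numbers as a covariate the rise of Ifit2 in PDGFB tumors missed the threshold (1.68, adjusted p = 0.0553).

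Among the OAS genes, Oasl2 was the most abundant. It was at 1.96, 1.18 and 0.991 FPKM in normal brain and 57.1, 9.19, 109.8 and 48.6 FPKM in NRAS tumors. In PDGFB tumors it was at 5.13, 20.0, 2.81 and 3.20 FPKM. Every tumor exceeded every normal brain, and PDGFB tumor 2 exceeded NRAS tumor 2. Oasl2 rose in NRAS tumors (4.18 ± 0.75, limma adjusted p = 0.000855) and was higher there than in PDGFB tumors (2.66 ± 0.69, adjusted p = 0.0169), a call lost without PDGFB tumor 3 (adjusted p = 0.0531). In PDGFB tumors against normal brain Oasl2 was not called (1.52 ± 0.75, adjusted p = 0.102), but passed with only those groups in the fit (0.0412) or without NRAS tumor 2 (0.0291). All 8 OAS genes tested rose in NRAS tumors (32.0% of all genes tested rose). In PDGFB tumors against normal brain 0 of 8 were called (29.3% of all genes tested rose). Except for Oasl2, the OAS genes tested were below 1 FPKM in every normal brain and passed the filter through the tumors. Oas1a, Oas2 and Oas3 were scarcer than Oasl2: they peaked at 13.6, 8.31 and 6.36 FPKM, all in NRAS tumor 3.

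Other type I effectors included the member with the smallest difference between the models. Ifi27, a mitochondrial and nuclear envelope protein, was at 24.6, 24.2 and 24.4 FPKM in normal brain, 129, 65.8, 115 and 91.5 FPKM in NRAS tumors and 87.9, 93.2, 70.4 and 110.4 FPKM in PDGFB tumors. All tumors lay above normal brain, the models overlapped, and PDGFB tumor 2 did not stand apart. NRAS tumors rose by 1.95 ± 0.22 (limma adjusted p = 5.86e-05), PDGFB tumors rose by 1.83 ± 0.22 (adjusted p = 7.24e-05), and the difference between the models was 0.12 ± 0.20 (adjusted p = 0.697). Its neighbour on chromosome 12, Ifi27l2a, behaved otherwise.

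Ifi27l2a was at 1.49, 1.58 and 2.03 FPKM in normal brain, 93.3, 29.6, 224 and 77.8 FPKM in NRAS tumors and 9.73, 18.3, 2.52 and 11.2 FPKM in PDGFB tumors. The 3 groups did not overlap. It rose in NRAS tumors (4.97 ± 0.64, limma adjusted p = 0.000139) and was higher there than in PDGFB tumors (3.12 ± 0.59, adjusted p = 0.00373). Its rise in PDGFB tumors (1.85 ± 0.64, adjusted p = 0.0268) was lost without PDGFB tumor 1 (adjusted p = 0.0532), 2 (0.0696) or 4 (0.0596), or without any 1 normal brain (0.056 to 0.0718), and with the run of title numbers as a covariate (0.54, adjusted p = 0.684). Usp18, the protease that removes ISG15 and damps the type I receptor, rose in NRAS tumors by 3.62, the sensor Ifih1 (MDA5) by 2.25 and Rsad2 by 2.28. None of these 3 was called in PDGFB tumors against normal brain.

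**Figure D3:**
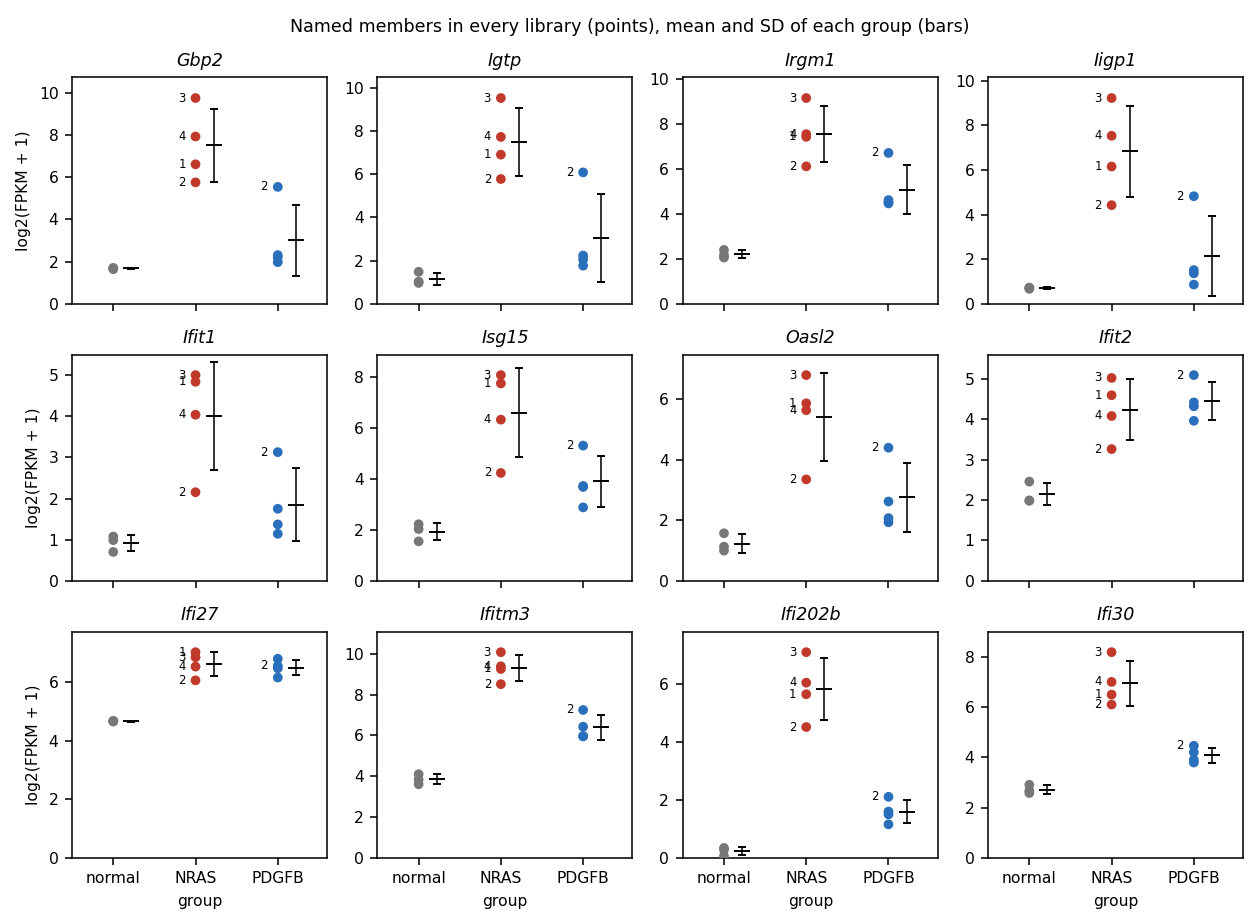
Levels of 12 named members, as log2(FPKM + 1), in every library (points) with the mean and SD of each group (bars), for normal brain (grey), NRAS tumors (red, numbered) and PDGFB tumors (blue, with tumor 2 numbered). Ifit2 and Ifi27 overlap between the models, whereas Ifitm3, Ifi202b and Ifi30 do not overlap.

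The IFITMs, small membrane proteins that block viral entry, held the most abundant member. Ifitm3 was at 13.2, 16.1 and 11.2 FPKM in normal brain, 610.2, 364, 1079 and 668 FPKM in NRAS tumors and 61.7, 151, 60.8 and 85.0 FPKM in PDGFB tumors. The 3 groups were fully apart, with PDGFB tumors in between. Ifitm3 rose in both models (5.46 ± 0.37, limma adjusted p = 3.28e-06, and 2.55 ± 0.37, adjusted p = 0.000246) and differed between them by 2.91 ± 0.34 (adjusted p = 0.000448). Ifitm2 was apart in the same order, with 11.4 to 16.5 FPKM in normal brain, 24.3 to 48.6 in PDGFB tumors and 147 to 249 in NRAS tumors.

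Ifitm1 was ordered differently over the libraries. It was at 6.95, 4.19 and 4.46 FPKM in normal brain, 36.4, 15.8, 42.4 and 183 FPKM in NRAS tumors and 2.54, 2.12, 5.15 and 8.55 FPKM in PDGFB tumors. Its highest library was NRAS tumor 4, not 3, and PDGFB tumor 2 was the lowest of all. Ifitm1 rose in NRAS tumors (2.96 ± 0.66, limma adjusted p = 0.00283), differed between the models (3.23 ± 0.61, adjusted p = 0.00385) and was not called in PDGFB tumors against normal brain (-0.27 ± 0.66, adjusted p = 0.75). Ifitm10, which fell in PDGFB tumors (-0.64 ± 0.25, adjusted p = 0.0438), stayed at or below 2.23 FPKM in every library, and its call was lost without PDGFB tumor 2. The count of members lower in PDGFB tumors also went from 2 to 1 in other settings. Among these were a pseudocount of 0.1, quantile normalization and leaving out any 1 normal brain. Which of the 2 calls was lost in those settings is not given here.

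Ifi202b, a DNA-binding PYHIN protein, was at 0.266, 0.216 and 0.0453 FPKM in normal brain, 48.6, 21.7, 134 and 64.4 FPKM in NRAS tumors and 1.82, 3.29, 1.22 and 2.02 FPKM in PDGFB tumors. The groups were fully apart. It rose in NRAS tumors (5.58 ± 0.47, limma adjusted p = 9.66e-06) and differed between the models (4.23 ± 0.43, adjusted p = 0.000225). Its rise in PDGFB tumors (1.36 ± 0.47, adjusted p = 0.0272) was lost without tumor 2 (1.19, adjusted p = 0.0673) or without any 1 normal brain (adjusted p = 0.0564 to 0.0807), and changed sign with the run of title numbers as a covariate (-0.13, adjusted p = 0.871). Normal brain 3, the library marked FVB, had its lowest level, and the part of strain was not tested.

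Ifi30 (GILT), a lysosomal reductase of antigen-presenting cells, was at 4.98, 6.50 and 5.36 FPKM in normal brain, 89.5, 67.7, 291 and 127 FPKM in NRAS tumors and 13.9, 21.04, 12.9 and 17.4 FPKM in PDGFB tumors. The 3 groups were fully apart with PDGFB tumors in between. It rose in both models (4.23 ± 0.39, limma adjusted p = 1.98e-05, and 1.37 ± 0.39, adjusted p = 0.0113) and differed between them by 2.86 ± 0.36 (adjusted p = 0.000652). With the run of title numbers as a covariate the rise of Ifi30 in PDGFB tumors was lost (0.074, adjusted p = 0.911).

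Library by library, the NRAS tumors were not alike. Taken as the difference from the normal mean on the log2(FPKM + 1) scale, the median gamma-type gene stood at 3.83, 2.56, 6.68 and 5.15 in NRAS tumors 1 to 4. The median type I-type gene stood at 2.67, 0.92, 3.09 and 2.49. Tumor 3 was highest in 41 of 52 members and in all 18 gamma-type genes, and tumor 2 was the lowest NRAS tumor for both medians.

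NRAS tumors 1 and 4 exchanged order between the types. All 18 gamma-type genes were higher in tumor 4 than in tumor 1 (median difference 1.03), but 17 of 24 type I-type genes were higher in tumor 1 (median of tumor 4 minus tumor 1, -0.27). Over all genes tested, 54.6% were higher in tumor 4. Gbp2 was at 245 FPKM in tumor 4 and 97.6 FPKM in tumor 1, while Isg15 was at 79.6 and 215 FPKM. This sets 1 library against another and has no replicate check.

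In PDGFB tumors 1, 3 and 4 the median member was near normal brain while a few members were well above it. Their gamma-type medians were 0.24, 0.03 and 0.24 and their type I-type medians 0.57, 0.13 and 0.36, on a scale that compresses low levels. All 3 exceeded every normal brain in 8 of 18 gamma-type and 14 of 24 type I-type genes. With all 4 PDGFB tumors, 33.8% of all genes tested were separated in this way. The share for these 3 tumors was not computed and cannot be below that one. The 2 counts are therefore descriptions and not a result about the members. Summed gamma-type levels were 46.9 to 52.6 FPKM beside 16.5 to 17.98 in normal brain, and summed type I-type levels 117 to 171 beside 41.6 to 48.4. Tumor 2 stood at 3.01 and 1.45. It was above all other PDGFB tumors in 43 of 52 members, including 18 of 18 gamma-type and 19 of 24 type I-type genes, beside 32.7% of all genes tested.

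PDGFB tumor 2 was close to NRAS tumor 2 in the gamma-type and type I-type genes and below it in the others. Of 18 gamma-type genes 12 were higher in PDGFB tumor 2, as were 17 of 24 type I-type genes, while 0 of the 10 IFITM, PYHIN and Ifi30 genes tested were (50.2% of all genes tested). Igtp, for instance, was at 67.0 FPKM in PDGFB tumor 2 and 54.0 in NRAS tumor 2, and Ifi202b at 3.29 and 21.7 FPKM. Leaving out PDGFB tumor 2 left 44 of the 45 members called between the models (12.2% of all genes tested were higher), with Ifitm6 the loss. Leaving out PDGFB tumor 2 and NRAS tumor 3 together, a choice made after seeing the data, left 39 of 44 members tested (9.56% of all genes tested).

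**Figure D4:**
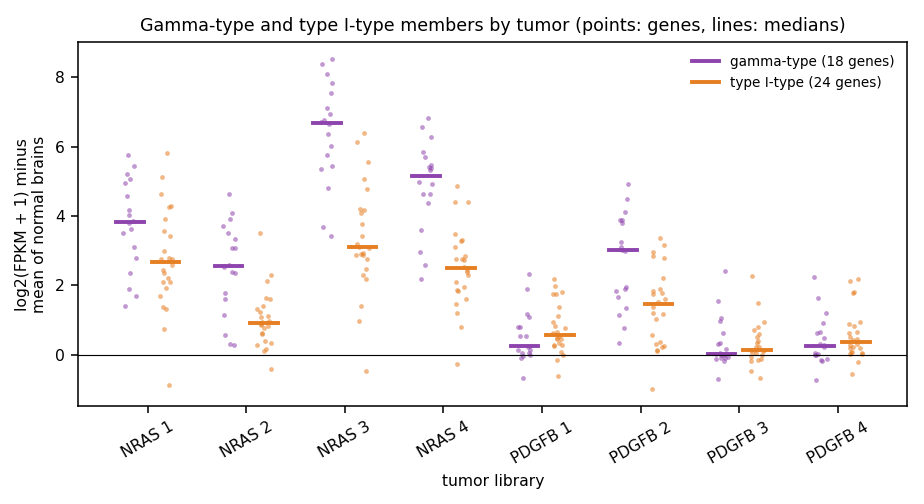
Difference from the mean of the normal brains, as log2(FPKM + 1), for each of the 18 gamma-type (purple) and 24 type I-type (orange) members tested (points) in each tumor, with medians as lines. The gamma-type median exceeds the type I-type median in all 4 NRAS tumors and in PDGFB tumor 2 (3.01 against 1.45).

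The genes that make, sense and relay interferon were given from a list chosen by role. No ligand gene reached the filter. For Ifng, NRAS tumors 1 to 4 held 0.717, 0.451, 13.4 and 8.24 FPKM, and it was listed at 0 in every normal brain and every PDGFB tumor, tumor 2 included. Ifnb1 reached at most 0.304 FPKM, in NRAS tumor 3. The 17 other ligand genes peaked at 0.25 FPKM or less. NRAS tumors 3 and 4, with the most Ifng, were those with the highest gamma-type medians.

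Of 5 receptor genes tested, 4 rose in NRAS tumors and 4 in PDGFB tumors, among them both tested receptor chains of type I interferon, Ifnar1 and Ifnar2. Of 13 kinases and transcription factors, 12 rose in NRAS tumors, whereas in PDGFB tumors 4 rose (Irf1, Irf3, Irf8 and Irf9) and Jak1 fell. Beside these counts, 32.0% of all genes tested rose in NRAS tumors. In PDGFB tumors 29.3% of all genes tested rose and 29.2% fell. Irf1, an interferon-induced transcription factor, was at 2.71 to 3.23 FPKM in normal brain, 35.5 to 359 in NRAS tumors and 9.18, 43.0, 11.1 and 10.4 in PDGFB tumors. Irf1 followed the GTPases: it was highest in NRAS tumor 3, with PDGFB tumor 2 above NRAS tumor 2.

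The brakes and sensors completed the list. Socs1, an inhibitor of JAK kinases, rose in NRAS tumors by 3.47 (limma adjusted p = 0.000896), and in PDGFB tumor 2 it stood at 1.83 FPKM beside 5.34 FPKM in NRAS tumor 2. In all, 4 of 5 brakes rose in NRAS tumors and 2 in PDGFB tumors. Among 16 nucleic acid sensors and adaptors, 15 rose and 1 (Adar) fell in NRAS tumors, whereas 4 rose and Adar fell in PDGFB tumors. The 4 were Ddx58 (RIG-I), Mavs, Ticam1 and Mb21d1 (cGAS). Between the models Mb21d1 (-0.13, adjusted p = 0.772), Ticam1 (-0.20, adjusted p = 0.2995) and Irf3 (-0.12, adjusted p = 0.5798) were not called, as Ifit2 and Ifi27 were not. Of 30 other induced genes, such as Cxcl10, Psmb8 and Bst2, 29 rose in NRAS tumors and 10 in PDGFB tumors. Of all genes tested, 32.0% rose and 30.3% fell in NRAS tumors, and 29.3% rose and 29.2% fell in PDGFB tumors. For PDGFB tumors the counts of factors, sensors and other induced genes are near the 29.3% that rose.

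**Figure D5:**
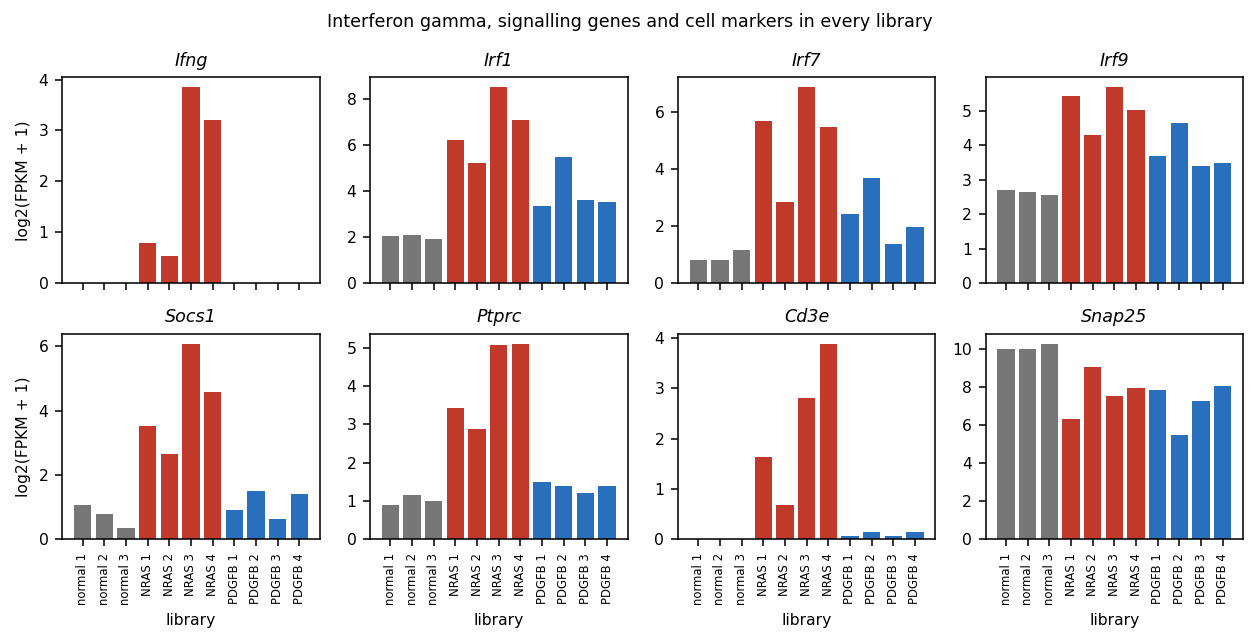
Levels of Ifng, signalling genes (Irf1, Irf7, Irf9, Socs1) and cell markers (Ptprc for leukocytes, Cd3e for T cells, Snap25 for neurons), as log2(FPKM + 1), in each of the 11 libraries (bars). Ifng is at 0 in all normal brains and PDGFB tumors, while Irf1 and Irf9 are higher in PDGFB tumor 2 (43.0 and 23.8 FPKM) than in the other PDGFB tumors.

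Most markers of macrophages, T and NK cells and neutrophils rose in NRAS tumors. In bulk tissue, fewer cells of a type and less RNA per cell cannot be told apart, nor can induction in a resident cell and the arrival of cells that express the gene. All 8 monocyte and macrophage markers rose in NRAS tumors, with summed levels of 159 to 1940 FPKM beside 22.2 to 25.0 in normal brain and 60.2 to 103 in PDGFB tumors. Of 8 T and NK cell markers tested, 7 rose in NRAS tumors, with sums of 12.8 to 296 FPKM beside 2.86 to 7.83 in normal brain. All 4 neutrophil markers rose too. Of the other lists, 4 of 6 homeostatic microglia, 1 of 2 B cell and 1 of 3 dendritic cell markers tested rose. Beside these counts, 32.0% of all genes tested rose. In NRAS tumor 3, where the GTPases peaked, the neutrophil sum (64.2 FPKM) and the homeostatic microglia sum (403 FPKM) were highest. The T and NK cell sum was highest in tumor 4, as was the macrophage sum, which rested on Lyz2 (1546 FPKM in tumor 4, 189 in tumor 3). Without Lyz2 the macrophage sums of tumors 3 and 4 were 404 and 394 FPKM. The part of these cells in the members' levels was not tested.

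PDGFB tumor 2 had high GTPase levels, and its leukocyte markers differed by list. Its T and NK cell markers summed to 2.68 FPKM, beside 1.01 to 1.92 in the other PDGFB tumors and 12.8 in NRAS tumor 2. Cd3e was at 0.104, Nkg7 at 0.309 and Gzmb at 0.212 FPKM, and Ptprc, the general leukocyte marker, was at 1.63 FPKM beside 1.30 to 1.81 in the other PDGFB tumors. Neutrophil markers summed to 5.84 FPKM, beside 2.65 to 5.79 in the other PDGFB tumors and 10.3 in NRAS tumor 2. B cell markers summed to 0.407 (0.233 to 2.72 in the other PDGFB tumors) and dendritic cell markers to 1.64 (1.90 to 2.84). The part of these cells was not tested. Its macrophage marker sum of 77.1 FPKM lay within the range of the other PDGFB tumors, 60.2 to 103. Without Lyz2 that sum was 22.5 beside 32.1 to 48.0 FPKM. It also had the lowest sums of neuron markers (113 FPKM beside 458 to 610.2 in the other PDGFB tumors) and of homeostatic microglia markers (92.2 beside 136 to 196).

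The labels were checked on the transgenes and the tissue. Nras was at 82.0 to 154 FPKM in NRAS tumors and 31.7 to 42.9 in PDGFB tumors, and Pdgfb at 745 to 1564 FPKM in PDGFB tumors and at most 7.80 elsewhere. Neuron markers were present in all libraries and lower in tumors (6 of 7 fell in NRAS tumors, 7 of 7 in PDGFB tumors). All 5 oligodendrocyte markers fell in both models. Of all genes tested, 30.3% fell in NRAS tumors and 29.2% in PDGFB tumors. The upper quartile of FPKM ran from 13.9 to 14.9 over the libraries, and 12705 to 13923 genes per library reached 1 FPKM. The table gives no read depth, so low values such as those of Tgtp1, Oas1g or Ifng in NRAS tumors 1 and 2 rest on an unknown number of reads.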

How the data were processed

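RNA sequencing of 3 normal brains, 4 NRAS tumors and 4 PDGFB tumors was taken from the table of FPKM that the authors deposited. TopHat2 2.0.13, Cufflinks 2.2.1 and mm10 are named in the submitters' processing notes; no source used here gives their settings or annotation. FPKM is scaled by transcript length and library total, and the read depth is unknown. Of 24347 rows, 27 with date-like names were left out.

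A single fit over all 11 libraries was made on log2(FPKM + 1) with limma 3.58.1 under R 4.3.3, using a variance trend. It covered the 14491 genes that reached 1 FPKM in 3 or more libraries. P-values are two-sided and Benjamini-Hochberg adjusted across that whole table, and calls were made below 0.05. The fit was tested on simulated data.

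The members and lists were chosen with earlier results of these data known. Members given library by library are, per family, the one with the highest mean level and the one with the largest change in each comparison. The families, the pathway list and markers of other cell types were set by symbol and role. Others, such as Ifit1bl1, were named after their values were seen. Settings varied were the pseudocount, filter, scaling, libraries fitted, replicate block, sample matching and title number run. The counts by type under each setting, and the fit without 2 tumors, were added after seeing the data. Protein sequences were not used here. A gene of the pathway list is counted but not reported by name here.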

Additional observations from a re-analysis of the deposited data

Results flagged for a closer look

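For the 15 members given library by library, each group of 4 tumors was checked for a sample whose distance from its nearest neighbour, as a share of the group's range on the log2(FPKM + 1) scale, exceeded Dixon's 95% critical value for 4 samples. Of 30 groups, 5 held such a sample, and each time it was PDGFB tumor 2, on the high side. Chance marks about 5% of groups, and genes that move together are not separate cases. The share was 0.906 for Gbp2 (45.8 FPKM), 0.852 for Gbp3 (37.1 FPKM), 0.892 for Igtp (67.0 FPKM), 0.837 for Iigp1 (27.3 FPKM) and 0.933 for Irgm1 (103 FPKM). All 5 are GBPs or IRGs, the gamma-type families, and none of the type I-type, IFITM or PYHIN members given library by library was marked. Beside these levels, Ifng was listed at 0 in that tumor, and its neuron marker sum was the lowest of all libraries (113 FPKM). Of the leukocyte lists, T and NK cell markers (2.68 FPKM) and neutrophil markers (5.84 FPKM) had their highest PDGFB sums in that tumor. The former sum was below every normal brain (2.86 to 7.83 FPKM), and the latter was close to PDGFB tumor 4 (5.79 FPKM). Homeostatic microglia markers (92.2 FPKM), dendritic cell markers (1.64 FPKM) and macrophage markers without Lyz2 (22.5 FPKM) had their lowest PDGFB sums there. B cell markers, and macrophage markers with Lyz2, lay within the range of the other PDGFB tumors.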

How the results depend on the processing

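The count of members called higher in NRAS tumors against normal brain (50) ran from 37 to 53 over the settings (53 of 60 tested with no filter), and that between the models (45) from 33 to 47. Leaving out 1 library gave 44 to 50 and 33 to 47, with the lowest counts without NRAS tumor 3 or, between the models, also without PDGFB tumor 3. Fewer members, 47 in place of 52, were tested without NRAS tumor 1, 3 or 4. Over the settings, 23.6% to 33.4% of all genes tested rose in NRAS tumors and 17.0% to 31.9% in PDGFB tumors. Between the models, 9.56% to 15.5% were higher in NRAS tumors. Members lower in NRAS tumors against normal brain (1) went to 0 with a pseudocount of 0.1 and within 1 run of title numbers, and to 0 to 1 with 1 library left out. Members higher in PDGFB tumors than in normal brain (9) went to 16 with a pseudocount of 0.1, 18 with only the groups compared, 2 with the run as a covariate and 7 to 15 with 1 library left out. Members lower there (2) went to 1 with a pseudocount of 0.1, no filter, quantile normalization, the replicate block, or without PDGFB tumor 2 and NRAS tumor 3, to 7 with the run as a covariate, and to 1 to 2 with 1 library left out. Gamma-type genes higher in PDGFB tumors (2) went to 4 with a pseudocount of 0.1 and 0 with the run as a covariate. Type I-type genes higher there (3) went to 7 with a pseudocount of 0.1, 10 with only the groups compared, 1 with the run as a covariate and 2 to 8 with 1 library left out (8 without NRAS tumor 2, 5 without NRAS tumor 3). Type I-type genes higher in NRAS tumors against normal brain (23) went to 15 within 1 run. Between the models (19) they went to 11 to 21 with 1 library left out, with 11 without NRAS tumor 3 or PDGFB tumor 3 and 12 without NRAS tumor 1 or 4. The cause was not tested.

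With the run as a covariate, fold changes in PDGFB tumors against normal brain changed sign for Gbp2 (-1.33), Igtp (-0.41), Iigp1 (-1.66), Ifit1 (-0.10), Oasl2 (-0.084) and Ifi202b (-0.13), none of them called. Between the models, the uncalled difference of Ifit2 changed sign with that covariate and within 1 run (0.10 in each), without NRAS tumor 2 (0.12) and without PDGFB tumor 2 (0.0069), and that of Ifi27 without NRAS tumor 1. With 1 library left out, Ifit2 ran from -0.47 to 0.12 and Ifi27 from -0.015 to 0.31. Of the other values of the 15 members, 882 kept direction and side of the threshold, 30 lost the call and 7 gained one.

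Same-numbered samples did not deviate together (correlations of -0.50 to 0.16), and the labels give no pairing by number. With the replicate block, 50 members rose in NRAS tumors against normal brain (29.1% of all genes tested) and 7 in PDGFB tumors (27.0%). Between the models 36 were higher in NRAS tumors (13.1%). Calls lost with the block were those of Ifi202b (adjusted p = 0.0727) and Ifi27l2a (0.0791) in PDGFB tumors. Between the models, Ifit1 (0.0546) and Isg15 (0.0565) lost theirs. Depth is unknown, which limits members near 0.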
